A study of Homo sapiens with 15 samples.

Results

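TRi-1, a small-molecule inhibitor of the TXNRD1 protein, was compared with its vehicle DMSO in senescent IMR90 fibroblasts, a human cell line established from fetal lung. The comparison rests on 6 libraries, chosen by their labels: 3 from senescent cells given DMSO and 3 from senescent cells given TRi-1 (written Tri-1 in the descriptions). Of 57736 genes in the count table, 15994 had counts high enough to be tested. The series holds 15 libraries in 5 groups of 3, and the other groups are growing control cells, senescent control cells and senescent cells with a short hairpin against TXNRD1 (shTXNRD1). All 6 libraries of the comparison are from senescent cells. The labels give neither how senescence was induced, nor the dose and time of TRi-1, nor whether replicates were separate cultures. So p-values measure only the spread between replicate libraries, which may be technical. That spread was estimated over all 15 libraries, unless the 6 libraries are said to be fitted alone. Only 1 inhibitor was used, so what it does through TXNRD1 and what it does otherwise cannot be told apart.

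TXNRD1 is the cytosolic thioredoxin reductase, a selenium-containing enzyme that uses NADPH to keep thioredoxin reduced. Reduced thioredoxin passes its electrons to peroxiredoxins, ribonucleotide reductase and oxidised protein thiols. Senescent cells have left the cell cycle for good, and senescent fibroblasts are known for releasing chemokines, interleukins and matrix proteases, together called the senescence-associated secretory phenotype. An inhibitor of an enzyme acts on the protein, so the mRNA of its target can stay where it was.

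The DMSO libraries held 19864361 to 28909046 counts and the TRi-1 libraries 19811736 to 23869302. The 10 most abundant genes took 8.08 to 8.24% of the counts with DMSO and 6.53 to 6.63% with TRi-1. DMSO replicate 1 stood apart from the other DMSO libraries. A chi-square per degree of freedom over genes was 10.6 and 14.1 between it and DMSO replicates 2 and 3, against 1.61 between those replicates, 1.84 to 3.28 among the TRi-1 libraries and 33.4 to 55.0 between a DMSO and a TRi-1 library. The mean GC content of the counted genes, weighted by counts, was 48.8% in DMSO replicate 1, 49.4 and 49.5% in DMSO replicates 2 and 3, and 49.6 to 49.8% with TRi-1. Across 15433 genes of known GC content, the log2 fold change rose with GC (Spearman's rho 0.312, across genes that are not independent replicates). The part of GC content in the results was not tested, and a GC correction is 1 of the 11 processing alternatives (other scalings, tools, filters and models) whose range of counts is given with the gene groups. List medians are from the fit without that correction, unless stated. The correction moved some medians toward 0 and others away from it.

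With TRi-1, 1222 genes were called higher (7.64% of those tested) and 1954 lower (12.2%), at an adjusted p under 0.05 (edgeR's quasi-likelihood test with Benjamini-Hochberg adjustment over all genes tested). Counts of called genes in each list below are to be set against these shares. At an unadjusted p under 0.05 in the same test, 2159 of the 15994 genes were higher and 3000 lower. Unadjusted counts below are to be set against these. Below, levels are CPM (counts scaled to library size) and values in brackets are log2 fold changes of TRi-1 against DMSO, with ± for their standard error. The falls were the larger changes. Among genes that changed at least 2-fold, 65 rose and 318 fell, and among those that changed at least 4-fold, 5 rose and 62 fell. The median log2 fold change was 0.37 over the genes that rose, -0.51 over those that fell and 0.0057 over all genes tested. Of the 3176 called genes, 3167 had 3 DMSO and 3 TRi-1 levels that did not overlap, against 48.7% of all genes tested. Without DMSO replicate 1, 781 genes rose and 1372 fell. Leaving out the other libraries one at a time gave 841 and 845 higher without DMSO replicates 2 and 3, and 793, 799 and 772 without TRi-1 replicates 1, 2 and 3, with 1402 to 1550 lower. Of the genes named below as called, each stayed called with each of the 6 libraries left out in turn, except where a library is named beside it.

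**Figure D1:**
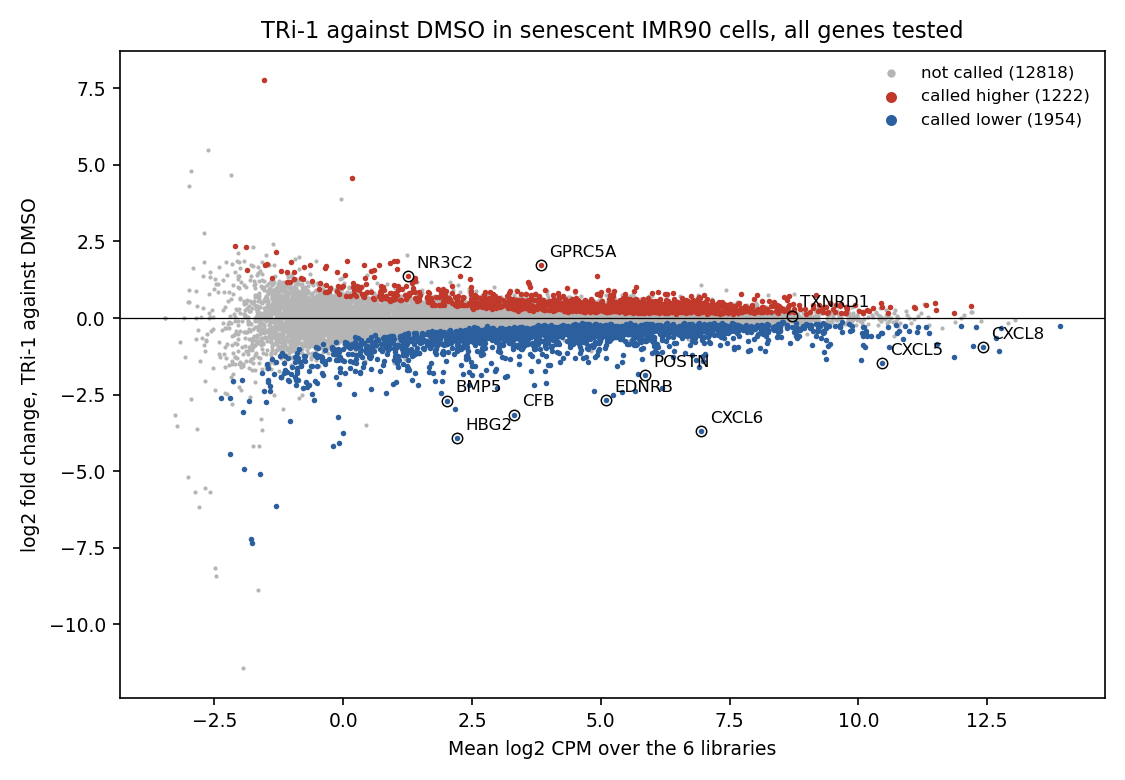
Each point is a gene, with its mean log2 CPM over the 6 libraries on the x axis and its log2 fold change (TRi-1 against DMSO, fitted by edgeR) on the y axis. Red points are the 1222 genes called higher, blue points the 1954 called lower, and grey points the genes not called. The blue cloud reaches further from 0 than the red one, with CXCL6 far below the genes of similar abundance. The points beyond 5 on either side lie at mean levels below 1 CPM (0 on the x axis), where a fold depends on a few counts.

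TXNRD1 mRNA was measured first, since TRi-1 acts on its product. Its levels were 430.2, 399 and 395 CPM in the DMSO libraries and 429.6, 420.4 and 443 CPM in the TRi-1 libraries, and the groups overlapped. The log2 fold change was 0.08 ± 0.07, adjusted p = 0.483. The transcript level gives no check of how far the protein was inhibited. TXNRD2, the mitochondrial reductase, missed the threshold (0.24, adjusted p = 0.39), as did TXNRD3 (-0.16, adjusted p = 0.554).

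Of the 22 tested genes of the thioredoxin system, 3 rose and 1 fell (median log2 fold change 0.13). That is 13.6% higher and 4.55% lower, against 7.64% and 12.2% of all genes tested. Thioredoxin itself, TXN, the substrate of the reductase, stood at 181, 172 and 167 CPM in the DMSO libraries and 234, 241 and 242 CPM in the TRi-1 libraries, with every TRi-1 library above every DMSO library. It rose 1.38-fold (0.46 ± 0.09, adjusted p = 0.00237). Sulfiredoxin, SRXN1, which repairs over-oxidised peroxiredoxins, stood at 70.3, 70.6 and 68.8 CPM with DMSO and 92.4, 92.9 and 95.2 CPM with TRi-1 and rose 1.34-fold (0.42, adjusted p = 0.000118). TXNDC17, a thioredoxin-related protein of the cytosol, rose by less (0.24, adjusted p = 0.00503). PRDX4, the peroxiredoxin of the endoplasmic reticulum, fell (-0.29, adjusted p = 0.00507), and PRDX1, PRDX2, PRDX3, PRDX5 and PRDX6 missed the threshold. The number higher was 3 with single libraries left out and 2 to 8 over the processing alternatives, and the number lower 1 and 1 to 3.

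Of all the lists, the CXC chemokines had the highest share of falls. The list holds chemokines that attract neutrophils through the receptors CXCR1 and CXCR2, those receptors, and the related platelet factors PF4 and PF4V1, which are not such attractants. Of 11 listed genes, 8 were tested (6 of them neutrophil attractants) and all 8 fell, with a median log2 fold change of -1.03 (12.2% of all tested genes fell). PPBP, CXCR1 and CXCR2 had counts too low to be tested. CXCL6 stood at 485, 421 and 425 CPM in the DMSO libraries and 35.9, 33.5 and 34.4 CPM in the TRi-1 libraries. It fell 12.8-fold (-3.68 ± 0.10, adjusted p = 2.9e-11), and the highest TRi-1 library lay far below the lowest DMSO library. CXCL5, its close relative, stood at 2513, 2229.8 and 2246 CPM with DMSO and 849.7, 837 and 847 CPM with TRi-1 and fell 2.76-fold (-1.46 ± 0.07, adjusted p = 1.31e-08). The 3 TRi-1 libraries lay close together, and DMSO replicate 1 was the highest of the DMSO libraries for both genes.

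CXCL8, the neutrophil attractant also called interleukin 8, stood at 8119, 7369 and 7321 CPM in the DMSO libraries and 3969, 3920.1 and 3999.7 CPM in the TRi-1 libraries. It fell 1.92-fold (-0.94 ± 0.10, adjusted p = 2.64e-05). CXCL1, which signals through CXCR2, stood at 2325, 2062 and 2103 CPM with DMSO and 1108, 1119 and 1119 CPM with TRi-1 and fell by about the same factor, 1.94-fold (-0.96, adjusted p = 7.49e-07). In neither gene did a TRi-1 library reach the level of a DMSO library. CXCL2 (33.2, 29.6 and 29.8 CPM with DMSO and 23, 22.3 and 24 CPM with TRi-1) fell 1.34-fold and CXCL3 (122, 113 and 116 CPM with DMSO and 89.3, 91.4 and 91.8 CPM with TRi-1) fell 1.29-fold, the smallest falls of the 8. The call of CXCL3 was lost without DMSO replicate 1 or TRi-1 replicate 1 (highest adjusted p = 0.0522).

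PF4V1 and PF4, platelet factor genes at low levels, complete the group. PF4V1 stood at 7.26, 10.2 and 10.3 CPM with DMSO and 3.11, 2.82 and 2.03 CPM with TRi-1 and fell 3.51-fold (adjusted p = 0.000387). PF4 (-1.10, adjusted p = 0.0476) lost its call without any 1 of the 6 libraries (highest adjusted p = 0.158). Without DMSO replicate 1, 6 of the 8 were called lower, and the number lower was 6 to 7 with single libraries left out and 7 to 8 over the processing alternatives. CXCL5 and CXCL6 are near-copies, as are CXCL1, CXCL2 and CXCL3, and PF4 and PF4V1. How reads shared between such copies were assigned is not stated beyond the tool, so the split within each set is uncertain. The falls differed in size within a set, from 12.8-fold for CXCL6 to 2.76-fold for CXCL5.

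**Figure D2:**
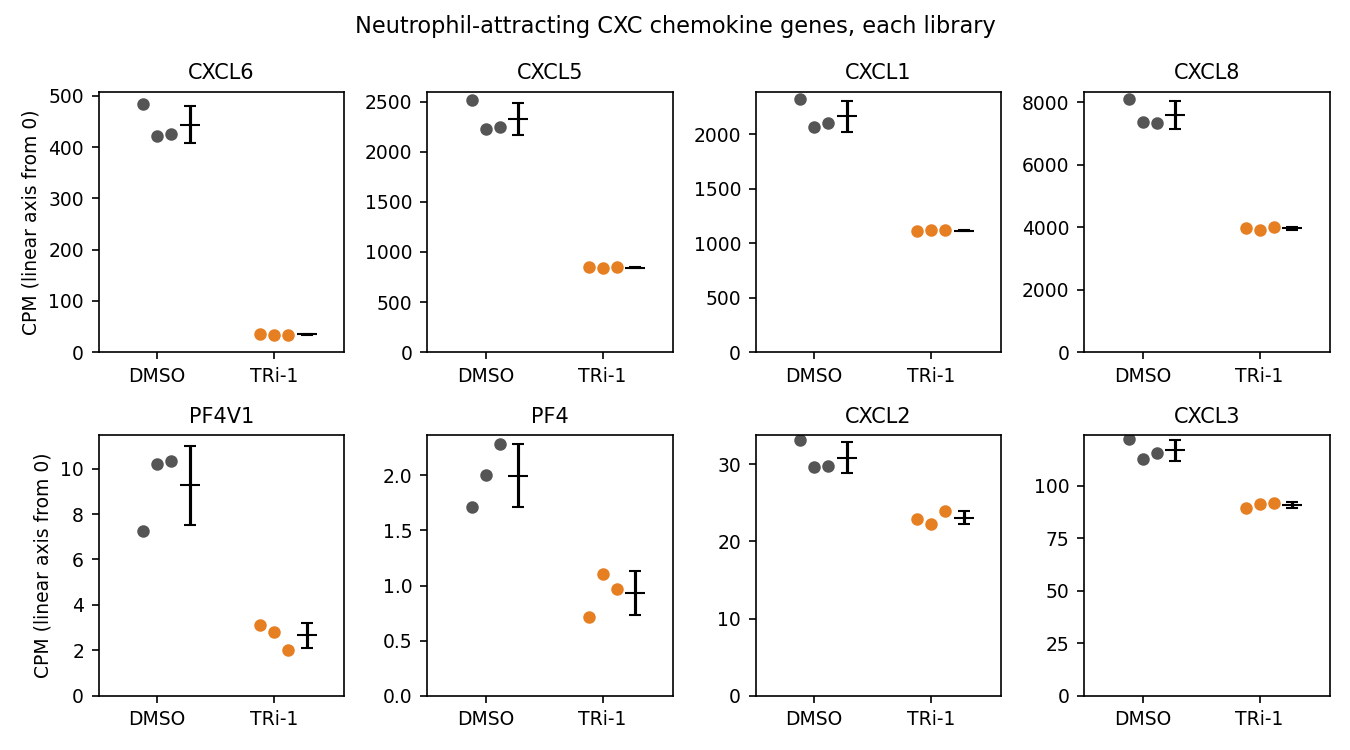
Levels in CPM (linear axes that start at 0) of the 8 tested CXC chemokine genes that attract neutrophils or are close relatives. Dots are single libraries (grey, DMSO; orange, TRi-1), and the bar beside them is the mean ± SD of 3. In all 8 genes the 3 TRi-1 libraries lie below the 3 DMSO libraries, widest apart in CXCL6 (421 to 485 CPM against 33.5 to 35.9 CPM).

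These genes sit together on chromosome 4, and their promoters are shown because 6 of the 7 with a promoter sequence share 1 run of letters. The 140 bases before the RefSeq start of each gene are given 5′ to 3′ on the gene's own strand, from RefSeq on GRCh38.p14 (the counts were made on another build, so these coordinates belong to the sequences only). Capitals mark GGAATTTCC, a form of the site that NF-kB proteins bind. The windows are chr4:73836538-73836677 (plus strand) for CXCL6, chr4:73998678-73998817 (minus) for CXCL5, chr4:73740429-73740568 (plus) for CXCL8, chr4:73869253-73869392 (plus) for CXCL1, chr4:74099196-74099335 (minus) for CXCL2 and chr4:74038690-74038829 (minus) for CXCL3.
CXCL6: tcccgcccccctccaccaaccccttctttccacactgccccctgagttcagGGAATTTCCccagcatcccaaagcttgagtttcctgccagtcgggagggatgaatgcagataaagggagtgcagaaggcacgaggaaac
CXCL5: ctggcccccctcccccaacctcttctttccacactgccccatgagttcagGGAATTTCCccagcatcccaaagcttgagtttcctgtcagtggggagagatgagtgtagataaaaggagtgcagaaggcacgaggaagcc
CXCL8: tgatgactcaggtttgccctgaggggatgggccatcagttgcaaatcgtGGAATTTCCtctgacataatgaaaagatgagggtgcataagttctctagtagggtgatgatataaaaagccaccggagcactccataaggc
CXCL1: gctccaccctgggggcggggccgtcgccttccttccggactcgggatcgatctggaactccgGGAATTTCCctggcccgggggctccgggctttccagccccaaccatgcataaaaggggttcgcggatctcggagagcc
CXCL2: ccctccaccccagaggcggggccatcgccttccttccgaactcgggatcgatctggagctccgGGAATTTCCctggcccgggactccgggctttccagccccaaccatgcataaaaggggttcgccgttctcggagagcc
CXCL3: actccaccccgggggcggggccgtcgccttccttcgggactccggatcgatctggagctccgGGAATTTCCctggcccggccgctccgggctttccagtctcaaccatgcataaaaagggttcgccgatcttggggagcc

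The letters GGAATTTCC were searched on both strands in the 250 bases before each start. They were found in 145 of 35116 RefSeq promoters (0.413%) and in 6 of the 7 tested chemokine genes with a promoter entry (85.7%). The promoters are shown because they share these letters, and several are near-copies, so the contrast of these shares is not a test. PF4V1 had no match and also fell, and PF4 had no entry. The match began 89 to 91 bases before the start in CXCL5, CXCL6 and CXCL8 and 77 or 78 bases before it in CXCL1, CXCL2 and CXCL3. The CXCL5 and CXCL6 windows had the same base at 127 of 139 aligned positions (91.4%), with a longest shared run of 45 bases. CXCL1 and CXCL3 shared 127 of 140 (90.7%), while CXCL8 shared 33.8% with CXCL6. CXCL6 fell 12.8-fold and CXCL5 2.76-fold, a split that is uncertain between near-copies. No binding was measured, and the part of the motif in these falls was not tested.

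Outside the chemokine list, the same letters were present in promoters of genes that fell and of genes that did not. In the list of NF-kB genes, 6 of 25 promoters held them (24%). Of those 6, NFKB1 and NFKBIA were higher with TRi-1, REL and MAP3K8 were lower, and NFKBIZ (-0.04, adjusted p = 0.732) and ICAM1 (-0.08, adjusted p = 0.52) missed the threshold. The call of NFKB1 was lost without DMSO replicates 2 or 3 or TRi-1 replicates 1 or 2 (highest adjusted p = 0.0807), and that of MAP3K8 without DMSO replicate 1 or TRi-1 replicates 1 or 3 (highest adjusted p = 0.0916). Among interferon genes 3 of 25 promoters held the letters (12%): CXCL10 (-0.34, adjusted p = 0.00626) and OAS3 (-0.45, adjusted p = 0.00563) fell, and CXCL11 (-0.64, adjusted p = 0.114) missed the threshold. Among other cytokines 0 of 16 held them. The looser pattern GGNNNTTCC, which includes every GGAATTTCC, was in 6 of the 7 chemokine promoters and in 17.1% of all promoters.

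NF-kB is a family of transcription factors that drives many inflammatory genes and is held back in the cytosol by inhibitors such as NFKBIA. Of 28 tested NF-kB genes (subunits, inhibitors and targets), 5 rose and 5 fell, with a median of -0.01, close to that of all genes. The even split did not hold in every fit: 3 rose and 8 fell after the GC correction, 2 and 8 with the replicate block and the GC correction together, 3 and 8 of 26 with a mean of at least 5 CPM, and 6 and 8 with the 6 libraries fitted alone. VCAM1, an adhesion receptor for leukocytes, stood at 75.7, 65.6 and 68.5 CPM in the DMSO libraries and 24.6, 26.5 and 26.6 CPM in the TRi-1 libraries. It fell 2.7-fold (-1.43, adjusted p = 5.75e-07), with no overlap between groups. PTX3, a secreted pattern recognition protein, fell 1.31-fold (-0.38, adjusted p = 0.00352), and REL, an NF-kB subunit, fell 1.53-fold (-0.62, adjusted p = 0.00669). NFKBIA (0.21, adjusted p = 0.00935) and IRAK2, a kinase below the interleukin 1 receptor (0.34, adjusted p = 0.00034), rose. RELA (0.48, adjusted p = 0.0332) was called higher, a call lost without any 1 of the libraries other than DMSO replicate 3 (highest adjusted p = 0.138). IRF1 (0.24, adjusted p = 0.0287) lost its call without any 1 of the libraries other than TRi-1 replicate 1 (highest adjusted p = 0.0956). Rises numbered 2 without DMSO replicate 2 or TRi-1 replicate 2, 3 without DMSO replicates 1 or 3 or TRi-1 replicates 1 or 3 and 1 to 6 over the processing alternatives, and falls 4 to 5 with single libraries left out and 5 to 8 over the processing alternatives. Targets such as SOD2 (0.02, adjusted p = 0.906), TNFAIP3 (-0.19, adjusted p = 0.0547) and BIRC3 (-0.20, adjusted p = 0.128) missed the threshold.

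Among 22 tested interleukins, colony-stimulating factors and their receptors, 8 fell and 1 rose (median -0.32). IL11, a fibrosis-linked cytokine of the interleukin 6 family, stood at 381, 380.4 and 386 CPM in the DMSO libraries and 199.9, 193 and 193 CPM in the TRi-1 libraries. It fell 1.96-fold (-0.97 ± 0.05, adjusted p = 1.65e-08), the sharpest fall of the called cytokines. IL6 stood at 509, 522 and 515 CPM with DMSO and 389, 393 and 399 CPM with TRi-1 and fell 1.31-fold (-0.39, adjusted p = 7.34e-05). IL1A, the membrane-bound upstream cytokine of the secretory phenotype, stood at 438, 407 and 402 CPM with DMSO and 308, 311 and 307 CPM with TRi-1 and fell 1.35-fold (-0.43, adjusted p = 0.00169). For all of these the groups did not overlap.

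IL1B fell by less, 1.21-fold (-0.28, adjusted p = 0.00753), while IL1R1, the receptor for both interleukin 1 forms, fell 1.41-fold (-0.50, adjusted p = 4.01e-05). IL24 fell 1.44-fold (-0.53, adjusted p = 0.000526). IL6R, the interleukin 6 receptor, rose (0.31, adjusted p = 0.0114), a call lost without TRi-1 replicate 3 (highest adjusted p = 0.0536). CSF2 (-0.40, adjusted p = 0.218), CSF3 (0.29, adjusted p = 0.201) and LIF (0.12, adjusted p = 0.665) missed the threshold. The number lower was 6 without DMSO replicate 1, and 6 to 8 with single libraries left out and 7 to 11 over the processing alternatives, and the number higher 0 to 1 in both. Of 7 other chemokine genes tested, 1 rose and 1 fell (median -0.30). CCL2, an attractant of monocytes, stood at 151, 157 and 157 CPM with DMSO and 180.0, 175 and 189 CPM with TRi-1 and was called higher (0.23, adjusted p = 0.0107), a call lost without DMSO replicate 1 (highest adjusted p = 0.0503). CX3CL1, at 0.622, 0.843 and 1.01 CPM with DMSO and 0.255, 0.185 and 0.38 CPM with TRi-1, fell (-1.58, adjusted p = 0.00992), a call lost without DMSO replicate 3 or TRi-1 replicate 2 (highest adjusted p = 0.0544). Over the processing alternatives 0 to 1 of these 7 were higher and 0 to 3 lower. The CXC list thus had 8 of 8 tested genes lower and the other chemokines 1 of 7, a difference between lists that was not tested. The CXC list does not hold every CXC chemokine. CXCL10, which fell, and CXCL11, which missed the threshold, were counted with the interferon genes.

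Interferon-stimulated genes are switched on by type I interferon, which cytosolic DNA can induce through the sensor cGAS and its partner STING. Of 34 tested interferon genes, 14 fell and 0 rose by edgeR (median -0.43, 12.2% lower over all genes). GBP2, a guanylate-binding protein, stood at 35.3, 34.4 and 32.6 CPM in the DMSO libraries and 21.5, 21.8 and 20.7 CPM in the TRi-1 libraries and fell 1.6-fold (-0.68, adjusted p = 1.03e-05). DDX60, an RNA helicase of antiviral defence, stood at 16.8, 13.8 and 15.2 CPM with DMSO and 7.79, 8.55 and 8.41 CPM with TRi-1 and fell 1.85-fold (-0.89, adjusted p = 4.79e-05). In both genes every TRi-1 library was below every DMSO library. IFI44 (2.59-fold), XAF1 (2.29-fold), IFI6 (1.61-fold), USP18 (1.53-fold), SAMD9 (1.6-fold), OAS3 (1.37-fold) and CXCL10 (1.27-fold) fell too. ISG15 (-0.05, adjusted p = 0.97), IFIT1 (-0.38, adjusted p = 0.146), IFIT3 (-0.14, adjusted p = 0.298) and MX1 (-0.56, adjusted p = 0.255) missed the threshold. At an unadjusted p under 0.05, 20 were lower and 0 higher. Falls numbered 13 without DMSO replicate 1, and 10 to 13 with single libraries left out and 11 to 16 over the processing alternatives, while the GC correction called 1 higher.

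In the list of nucleic acid sensors, 3 of 15 tested genes fell and 0 were called higher (median -0.03, 4 and 3 at an unadjusted p under 0.05). STING1 stood at 80.6, 86.8 and 91.8 CPM in the DMSO libraries and 67.6, 71.9 and 66.6 CPM in the TRi-1 libraries, without overlap, and was called lower (-0.33, adjusted p = 0.0332). The call of STING1 did not hold without any 1 of the libraries other than DMSO replicate 1 (highest adjusted p = 0.12), nor with the replicate block. CGAS missed the threshold (0.15, adjusted p = 0.481). TLR2, a receptor for bacterial lipoproteins, was at 1.19, 1.16 and 1.2 CPM with DMSO and 0.305, 0.277 and 0.254 CPM with TRi-1 and fell 4.2-fold (-2.07, adjusted p = 0.000155). IFIH1, an RNA sensor, was called lower (-0.73, adjusted p = 0.0138), a call lost without DMSO replicate 1 or TRi-1 replicates 2 or 3 (highest adjusted p = 0.0651). The count of falls was 1 without TRi-1 replicates 2 or 3 and 1 to 4 over the processing alternatives, and rises came to 1 without DMSO replicate 3 and 0 to 3 over the processing alternatives.

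Many transcripts for extracellular matrix, which fibroblasts secrete, were lower with TRi-1. Of 37 tested collagens and collagen-processing enzymes, 16 fell, 0 rose and the others missed the threshold (median -0.34, with 18 lower and 0 higher at an unadjusted p under 0.05), and 16 fell with any 1 library left out. COL14A1, a collagen that sits on fibril surfaces, stood at 103, 95.9 and 95.7 CPM in the DMSO libraries and 17.2, 17.8 and 19.7 CPM in the TRi-1 libraries. It fell 5.39-fold (-2.43 ± 0.07, adjusted p = 4.71e-11). COL3A1, a fibril collagen of soft tissue, stood at 1594, 1765 and 1746 CPM with DMSO and 664, 672 and 647 CPM with TRi-1 and fell 2.57-fold (-1.36, adjusted p = 1.24e-07). COL12A1 stood at 5972, 5717 and 5725 CPM with DMSO and 2409.7, 2357 and 2416 CPM with TRi-1 and fell 2.42-fold (-1.28, adjusted p = 1.38e-08). In these genes the groups were far apart and the TRi-1 libraries close together.

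COL1A2, a chain of collagen I, fell 1.87-fold (-0.90, adjusted p = 2.17e-05). Its partner COL1A1 was at 2707, 3915 and 4183 CPM with DMSO and 2819, 3127 and 2595 CPM with TRi-1 and missed the threshold (-0.34, adjusted p = 0.534). COL8A1 (2.14-fold), COL10A1 (2.48-fold), COL15A1 (2.99-fold), COL5A2 (1.9-fold), COL4A1 (1.82-fold) and COL6A3 (1.58-fold) fell as well. So did the collagen lysine hydroxylase PLOD2 (1.35-fold) and the crosslinking enzymes LOXL3 (1.62-fold) and LOXL4 (1.34-fold). COL6A1 (-0.03, adjusted p = 0.96), COL18A1 (-0.02, adjusted p = 0.988) and LOX (-0.08, adjusted p = 0.473) missed the threshold. After the GC correction 31 of the list fell, and 29 with the replicate block and the GC correction together. The GC correction called COL6A1 (-0.30, adjusted p = 0.00116) and COL18A1 (-0.34, adjusted p = 0.0181) lower.

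Of 39 tested matrix glycoproteins and proteoglycans, 26 fell and 2 rose (median -0.50). POSTN, periostin, a matrix protein of wound repair and fibrosis, stood at 118, 108 and 105 CPM in the DMSO libraries and 32.5, 29.9 and 29.2 CPM in the TRi-1 libraries. It fell 3.62-fold (adjusted p = 3.92e-09). LAMA2, a basement membrane laminin chain, stood at 71.1, 68.6 and 64.6 CPM with DMSO and 23.2, 22.9 and 22.7 CPM with TRi-1 and fell 2.97-fold (-1.57, adjusted p = 4.01e-09). LUM, lumican, a proteoglycan that spaces collagen fibrils, stood at 139, 126 and 130.1 CPM with DMSO and 53.7, 53.3 and 55.4 CPM with TRi-1 and fell 2.43-fold (-1.28, adjusted p = 5.85e-07). None of these had a TRi-1 library that reached a DMSO library.

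The proteoglycans DCN (1.92-fold) and VCAN (1.9-fold), the fibrillin FBN2 (2.09-fold), the basement membrane linker NID1 (1.77-fold) and SPARC (1.41-fold) fell. FN1, fibronectin, fell by less, 1.19-fold (-0.25, adjusted p = 0.00318). HAPLN1, which links hyaluronan to proteoglycans, was low in all libraries and fell the most of the list, at 2.18, 2.74 and 2.64 CPM with DMSO and 0.356, 0.37 and 0.0845 CPM with TRi-1 (-3.23, adjusted p = 1.87e-05). SPP1, osteopontin, rose against the list, from low levels (0.933, 1.0 and 0.616 CPM with DMSO and 2.85, 2.59 and 2.87 CPM with TRi-1, 1.72, adjusted p = 0.000127). NID2, a relative of NID1, rose 1.27-fold (0.34, adjusted p = 5.71e-05). Called falls came to 24 without DMSO replicate 1, and 22 to 24 with single libraries left out and 24 to 31 over the processing alternatives, where the rises numbered 1 to 3.

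The contractile and TGF-beta list, genes that rise when a fibroblast becomes a myofibroblast, had 12 of 28 tested members lower and 2 higher (median -0.05). TGFBR1, a TGF-beta receptor, stood at 209, 191 and 186 CPM in the DMSO libraries and 87.9, 82.9 and 88.1 CPM in the TRi-1 libraries. It fell 2.26-fold (-1.18, adjusted p = 1.49e-06), without overlap between groups. The ligand TGFB2 fell 1.43-fold, smooth muscle actin ACTA2 1.35-fold, the myosin MYH10 1.43-fold and the secreted CCN2 1.3-fold (adjusted p = 0.00031, 0.000205, 2.4e-06 and 2.94e-05). ANKRD1, a nuclear target of mechanical and YAP signalling, went the other way, at 8.97, 8.7 and 6.88 CPM with DMSO and 17.2, 18.9 and 17.2 CPM with TRi-1, a rise of 2.18-fold (1.13, adjusted p = 2.48e-05). VCL, vinculin, rose slightly (0.18, adjusted p = 0.00632). The ligand TGFB1 (0.13, adjusted p = 0.766) and TAGLN (-0.12, adjusted p = 0.661) missed the threshold. The number lower was 9 to 10 with single libraries left out and 10 to 13 over the processing alternatives. Called rises moved more, with 7 when the 6 libraries were fitted alone, 4 after the GC correction (with or without the replicate block) and 1 without a filter on low counts.

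Among 26 tested matrix proteases and inhibitors, 8 fell and 3 rose (median -0.15). MMP1 (-0.16, adjusted p = 0.228) and MMP3 (-0.10, adjusted p = 0.451), collagenase and stromelysin of the secretory phenotype, missed the threshold. PLAT, tissue plasminogen activator, stood at 1373, 1529 and 1531 CPM in the DMSO libraries and 791, 819 and 791 CPM in the TRi-1 libraries. It fell 1.85-fold (-0.88, adjusted p = 7.7e-06), and SERPINE2, a protease inhibitor, fell 1.64-fold (-0.72, adjusted p = 2.93e-06). CTSK, a cathepsin that degrades collagen, stood at 288, 263 and 263 CPM with DMSO and 133, 135 and 137 CPM with TRi-1 and fell 2.01-fold (-1.01, adjusted p = 1.99e-06). MMP10 fell 1.48-fold, while ADAMTS1 rose 1.33-fold and CTSL rose 1.26-fold. Falls numbered 6 to 8 with single libraries left out and 8 to 13 over the processing alternatives.

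Of 31 tested growth factors and their binding proteins, 12 fell and 2 rose (median -0.21). IGFBP5, which binds insulin-like growth factors, stood at 9224, 10200.2 and 10300.4 CPM in the DMSO libraries and 4764, 4749.6 and 4679 CPM in the TRi-1 libraries. It fell 2.09-fold (-1.07, adjusted p = 1.8e-07), and PAPPA, a protease that cuts such binding proteins, fell 1.51-fold (-0.59, adjusted p = 1.3e-06). ANGPT1, a ligand that steadies blood vessels, stood at 212, 182 and 188 CPM with DMSO and 82.1, 84.8 and 78.6 CPM with TRi-1 and fell 2.37-fold (-1.25, adjusted p = 1.07e-06). INHBA, the activin A subunit, fell 1.51-fold, IGFBP7 1.38-fold, IGFBP3 1.35-fold and BMP4 1.73-fold. VEGFC (0.42, adjusted p = 0.00175) and FGF5 (0.38, adjusted p = 0.00111) rose, and GDF15 (0.29, adjusted p = 0.45), VEGFA (0.05, adjusted p = 0.719) and AREG (-1.19, adjusted p = 0.363) missed the threshold. The count of falls was 11 without DMSO replicate 1, and 11 to 12 with single libraries left out and 11 to 16 over the processing alternatives. Rises, at 2 to 3 with single libraries left out, came to 6 with the 6 libraries fitted alone and after the GC correction, with or without the replicate block.

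Prostaglandins are lipid messengers made from arachidonic acid by the cyclooxygenases PTGS1 and PTGS2. Of 16 tested genes of their synthesis and receptors, 10 fell and 1 rose, with a median of -0.71. PTGS1 stood at 208, 207 and 206 CPM in the DMSO libraries and 67.9, 68.6 and 70.2 CPM in the TRi-1 libraries. It fell 3.01-fold (-1.59 ± 0.05, adjusted p = 4.71e-11). PTGS2, the inducible form, stood at 418, 382 and 387 CPM with DMSO and 227, 224 and 226 CPM with TRi-1 and fell 1.76-fold (-0.81, adjusted p = 8.51e-06). In both, replicates were tight and groups far apart. Thromboxane synthase TBXAS1 fell 1.64-fold (-0.71, adjusted p = 1.7e-06), and the receptors PTGER2 (1.77-fold), PTGER4 (1.63-fold) and PTGFR (1.53-fold) fell too. AKR1C3, a prostaglandin F synthase and near-copy of AKR1C1, had the largest fall of the list (-2.60, adjusted p = 0.0134), a call lost without DMSO replicate 2 or TRi-1 replicate 3 (highest adjusted p = 0.103). PTGES, a prostaglandin E synthase, was at 2.02, 4.43 and 4.38 CPM with DMSO and 1.17, 0.878 and 1.56 CPM with TRi-1, with DMSO replicate 1 nearer to the TRi-1 libraries than to the other DMSO libraries, and its call (-1.58, adjusted p = 0.0435) was lost without any 1 of the libraries other than DMSO replicate 1 (highest adjusted p = 0.153). AKR1B1, an aldo-keto reductase that also makes prostaglandins, rose 1.3-fold (0.37, adjusted p = 0.000307). Called falls came to 7 to 9 with single libraries left out and 6 to 11 over the processing alternatives, and rises to 1 and 1 to 3.

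**Figure D3:**
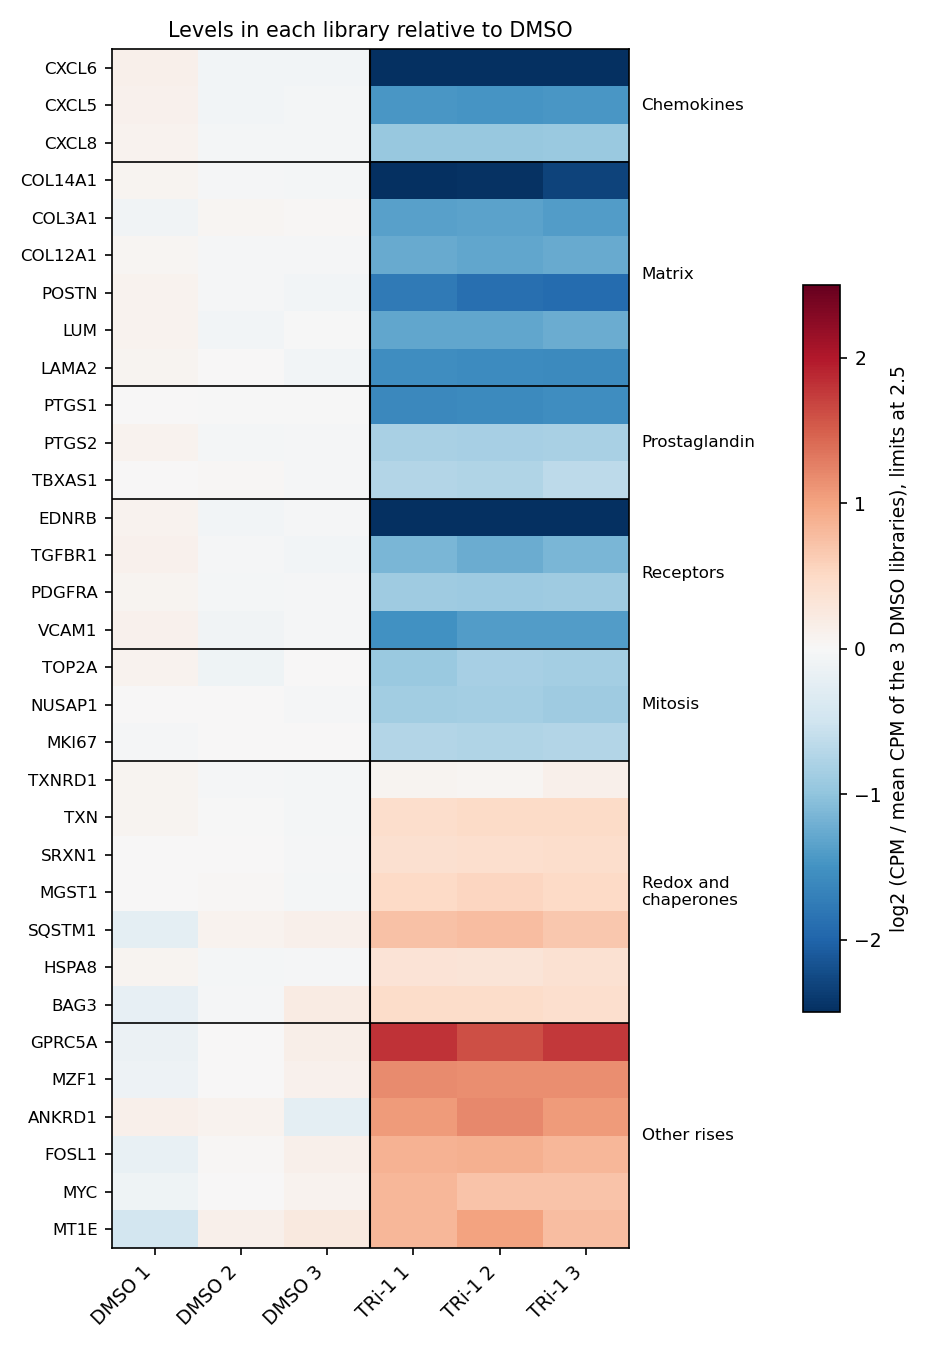
Each row is a gene and each column a library. Colour gives log2 of the CPM over the mean CPM of the 3 DMSO libraries, blue for lower and red for higher, with the scale ending at 2.5 on both sides. Within a row the 3 TRi-1 columns have nearly the same colour. CXCL6, EDNRB and COL14A1 are at the blue end and GPRC5A at the red end, and TXNRD1 is nearly white throughout.

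Of the senescence markers CDKN1A, CDKN2A and LMNB1, CDKN2A was called higher, LMNB1 was called lower and CDKN1A missed the threshold. CDKN1A, the p21 inhibitor of cyclin-dependent kinases, stood at 1398, 1611 and 1624 CPM in the DMSO libraries and 1843, 1864 and 1814 CPM in the TRi-1 libraries, higher without overlap (0.25, adjusted p = 0.0753). CDKN2A, the p16 locus, stood at 15.3, 18.4 and 18 CPM with DMSO and 21.5, 22.5 and 21.4 CPM with TRi-1 and was called higher (0.34, adjusted p = 0.011), a call lost without DMSO replicate 1 (highest adjusted p = 0.0554) and after the GC correction. LMNB1, lamin B1, whose loss marks senescence, stood at 12.2, 10.9 and 10.7 CPM with DMSO and 5.75, 6.79 and 6.13 CPM with TRi-1 and fell 1.81-fold (-0.85, adjusted p = 6.52e-05), with no overlap.

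In the list of arrest and chromatin genes, 7 of 20 fell and 3 rose (median -0.09). HMGB2 fell 1.49-fold and HMGB1 1.35-fold, both DNA-bending proteins, while HMGA2, a chromatin protein of senescent foci, rose 1.41-fold (0.50, adjusted p = 0.000526). Of the 7, CDKN1B (-0.44, adjusted p = 0.00142), CDKN2C (-1.03, adjusted p = 0.00329) and RBL2 (-0.46, adjusted p = 0.00114) are brakes of the cell cycle. The count of rises was 1 without DMSO replicate 1 and 2 to 4 over the processing alternatives. Of 8 tested histone genes 3 rose and 1 fell (median 0.20): H2BC21 (1.41-fold), H4C8 (1.52-fold) and H2BC12 (1.4-fold) rose, with the same counts in each leave-one-out fit.

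Of 40 tested genes of G2 and mitosis, 27 fell and 1 rose (median -0.46), against 2 lower and 0 higher of 38 genes of DNA replication (median -0.04). TOP2A, a topoisomerase of dividing cells, stood at 71.9, 63.3 and 69 CPM in the DMSO libraries and 35.7, 38.1 and 37.6 CPM in the TRi-1 libraries. It fell 1.83-fold (-0.87, adjusted p = 1.63e-05). MKI67, the Ki-67 proliferation marker, stood at 56.2, 57.9 and 57.4 CPM with DMSO and 34.3, 34.1 and 34.6 CPM with TRi-1 and fell 1.67-fold (-0.74, adjusted p = 4.22e-06). NUSAP1, a spindle protein, stood at 14.1, 14.2 and 13.8 CPM with DMSO and 7.69, 7.76 and 7.56 CPM with TRi-1 and fell 1.83-fold (-0.87, adjusted p = 7.22e-06). Each of these had 3 TRi-1 libraries below 3 DMSO libraries.

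The mitotic kinase CDK1 fell 1.55-fold, its cyclin CCNA2 1.61-fold, and the kinetochore proteins CENPF 1.7-fold and NUF2 2.01-fold. BUB3, a checkpoint protein, rose 1.2-fold (0.26, adjusted p = 0.00814). PLK1 (-0.07, adjusted p = 0.798), AURKA (0.14, adjusted p = 0.243) and FOXM1 (0.04, adjusted p = 0.809), regulators of mitosis, missed the threshold. The number of mitosis genes lower was 20 without DMSO replicate 1, and 19 to 23 with single libraries left out and 24 to 32 over the processing alternatives. In bulk libraries fewer dividing cells and less RNA per cell cannot be told apart. The replication genes MCM3 (-0.23, adjusted p = 0.0213) and MCM6 (-0.45, adjusted p = 0.0114) were the 2 called lower of their list. The call of MCM3 was lost without DMSO replicates 1 or 2 or TRi-1 replicates 2 or 3 (highest adjusted p = 0.0808), and that of MCM6 without DMSO replicate 1 or TRi-1 replicate 1 (highest adjusted p = 0.0595). The replication count lower was 0 without DMSO replicate 1, 1 without TRi-1 replicates 1, 2 or 3 and 1 to 6 over the processing alternatives. At an unadjusted p under 0.05, 6 of the 38 replication genes were lower and 1 higher, against 3000 and 2159 of all 15994 genes tested. The GC correction called 1 replication gene and 2 mitosis genes higher.

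Of 30 tested genes that DNA damage is known to switch on, 7 rose and 0 fell (median 0.24, or 0.14 after the GC correction). POLH, a polymerase that copies past UV damage, stood at 32.1, 27.7 and 26.3 CPM in the DMSO libraries and 48.1, 50.3 and 48.3 CPM in the TRi-1 libraries. It rose 1.71-fold (0.77, adjusted p = 3.61e-05), with no overlap. BTG2, an antiproliferative factor, rose 1.44-fold (0.53, adjusted p = 0.00108) and the death receptor TNFRSF10A rose 1.31-fold (0.39, adjusted p = 0.00219). MDM2 (0.19, adjusted p = 0.149) and BAX (0.43, adjusted p = 0.316), textbook members, missed the threshold. Called rises came to 6 without DMSO replicate 1, and 5 to 6 with single libraries left out and 5 to 15 over the processing alternatives, where 0 to 2 were lower. At an unadjusted p under 0.05, 12 were higher and 1 lower.

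NRF2 is the transcription factor that responds to oxidants and electrophiles, and many of its targets belong to the thioredoxin and glutathione systems. Of its 37 tested targets, 5 rose and 6 fell (median 0.09), or 13.5% and 16.2%, against 7.64% and 12.2% of all genes tested. The near-even split did not hold in every fit. With the 6 libraries fitted alone 14 rose and 6 fell, and after the GC correction 11 and 8. SRXN1, TXN and AKR1B1 rose, as above. SQSTM1, the autophagy adaptor p62, stood at 266, 333 and 342 CPM in the DMSO libraries and 523, 534 and 499.5 CPM in the TRi-1 libraries, and was called higher (0.73, adjusted p = 0.0152), a call lost without DMSO replicate 1 or TRi-1 replicate 2 (highest adjusted p = 0.0702). HMOX1, heme oxygenase, stood at 6.58, 6.43 and 6.95 CPM with DMSO and 8.76, 9.89 and 9.34 CPM with TRi-1, and its call (0.49, adjusted p = 0.0492) was lost without any 1 of the 6 libraries (highest adjusted p = 0.15). In both genes the 3 TRi-1 libraries lay above the 3 DMSO libraries.

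In the same list AKR1C1, an aldo-keto reductase, stood at 27.4, 25.8 and 26.6 CPM with DMSO and 9.16, 8.69 and 9.97 CPM with TRi-1 and fell 2.86-fold (-1.52, adjusted p = 5.26e-09), and its near-copy AKR1C2 fell 2.53-fold (-1.34, adjusted p = 0.000693). NQO1 (0.17, adjusted p = 0.201), GCLM (-0.20, adjusted p = 0.188) and SLC7A11 (0.09, adjusted p = 0.618), targets widely used to read the pathway, missed the threshold. The number of targets higher was 3 without DMSO replicate 1 or TRi-1 replicate 2 and 4 to 14 over the processing alternatives. The number lower was 4 to 6 with single libraries left out and 4 to 8 over the processing alternatives.

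Glutathione is the cell's other thiol system, parallel to thioredoxin. Of 27 tested genes, 9 rose and 4 fell (median 0.18). MGST1, a membrane glutathione transferase, stood at 138, 141 and 134 CPM in the DMSO libraries and 194, 198 and 195 CPM in the TRi-1 libraries. It rose 1.42-fold (0.51, adjusted p = 0.00118). GSS, which completes glutathione synthesis, rose 1.28-fold (0.36, adjusted p = 0.00269), whereas GCLC, the catalytic subunit of its rate-limiting step, fell 1.25-fold (-0.32, adjusted p = 0.00381). GLRX2, a mitochondrial glutaredoxin, rose 1.52-fold (0.61, adjusted p = 0.00185), and SLC3A2, a subunit of the cystine importer, rose 1.24-fold (0.31, adjusted p = 0.00782). GPX4 (0.26, adjusted p = 0.55), which blocks lipid peroxidation, missed the threshold. With the 6 libraries fitted alone GPX4 was called higher (0.25, adjusted p = 0.031). Rises came to 7 without DMSO replicate 1, and 6 to 7 with single libraries left out and 7 to 12 over the processing alternatives, and falls to 3 to 4 and 4 to 7.

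TXNRD1 belongs to the selenoproteins, of which (with the genes that make them) 2 of 25 tested rose and 4 fell (median 0.08). That is 8% higher and 16% lower, near the 7.64% and 12.2% of all genes tested. GPX3, a secreted peroxidase, rose 1.8-fold from 1.61, 2.16 and 2.25 CPM with DMSO and 4.53, 3.23 and 3.17 CPM with TRi-1 (0.85, adjusted p = 0.00252). SELENOP, the selenium carrier of plasma, was low and fell, at 0.466, 0.738 and 0.761 CPM with DMSO and 0.153, 0.185 and 0.254 CPM with TRi-1 (-1.70, adjusted p = 0.00751), and DIO2, a deiodinase, fell 1.39-fold (-0.48, adjusted p = 0.00276). Rises numbered 1 without any 1 of the libraries other than DMSO replicate 1 and 0 to 5 over the processing alternatives. Falls numbered 2 without any 1 of the libraries other than DMSO replicate 3 and 3 to 4 over the processing alternatives.

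Of all the lists, heat shock genes had the highest share of rises. Of 25 tested heat shock genes, which fold or refold proteins, 10 rose and 0 fell, against 7.64% higher over all genes. The median was 0.20, or 0.25 after the GC correction. FKBP4, a co-chaperone of HSP90, stood at 81.9, 80.5 and 84.8 CPM in the DMSO libraries and 113, 112 and 110.3 CPM in the TRi-1 libraries and rose 1.36-fold (0.44, adjusted p = 2.17e-05). HSPA8, the constitutive cytosolic HSP70, stood at 2016, 1863 and 1867 CPM with DMSO and 2437, 2393 and 2481 CPM with TRi-1 and rose 1.27-fold (0.35, adjusted p = 0.0114). All 3 TRi-1 libraries were above all 3 DMSO libraries in both. STIP1 (1.21-fold), DNAJB1 (1.26-fold), BAG3 (1.37-fold), HSPB8 (1.44-fold) and the mitochondrial HSPA9 (1.28-fold) rose too. The stress-inducible HSPA1A (-0.10, adjusted p = 0.861) and HSPA1B (-0.15, adjusted p = 0.755), near-identical copies, missed the threshold. The count of rises was 9 without DMSO replicate 1, and 8 to 9 with single libraries left out and 9 to 18 over the processing alternatives. At an unadjusted p under 0.05, 11 were higher and 0 lower.

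Of 23 tested chaperones and stress genes of the endoplasmic reticulum, 0 were called higher and 4 fell (median -0.08). The share lower was 17.4%, against 12.2% of all genes tested, of which 7.64% were higher. HSP90B1 stood at 2216, 1972 and 1956 CPM in the DMSO libraries and 1465, 1441 and 1449 CPM in the TRi-1 libraries and fell 1.41-fold (-0.50, adjusted p = 0.00126), and PDIA4, a disulfide isomerase, fell 1.25-fold (-0.32, adjusted p = 0.000597). HSPA5, the main chaperone of this compartment, missed the threshold (-0.01, adjusted p = 0.962), as did XBP1 (-0.08, adjusted p = 0.522). The count of falls was 2 without DMSO replicate 1 or TRi-1 replicate 1 and 3 to 10 over the processing alternatives, where 0 to 3 were higher. At an unadjusted p under 0.05, 10 were lower and 2 higher.

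The amino acid and integrated stress response, run by ATF4, had 3 of 32 tested genes higher and 6 lower (median -0.05). These shares, 9.38% and 18.8%, stood against 7.64% and 12.2% of all genes tested. ASNS, asparagine synthetase, stood at 12.4, 11.5 and 11 CPM with DMSO and 8.09, 8.13 and 8.07 CPM with TRi-1 and fell 1.44-fold (-0.52, adjusted p = 3e-04). ALDH1L2 fell 1.45-fold and the amino acid transporter SLC38A2 fell 1.4-fold, while PPP1R15A, which ends the response, rose 1.36-fold (0.44, adjusted p = 0.000236). ATF4 (-0.15, adjusted p = 0.128), DDIT3 (0.14, adjusted p = 0.28) and TRIB3 (-0.17, adjusted p = 0.155) missed the threshold. Called falls came to 3 without TRi-1 replicates 2 or 3 and 5 to 11 over the processing alternatives, where the rises numbered 3 to 6. Of 7 tested metallothionein and zinc genes, 2 rose and 1 fell (median 0.16). MT1E, a metal-binding protein that shares sequence with other metallothioneins, stood at 27.5, 41 and 44.3 CPM with DMSO and 66.8, 75.2 and 64.2 CPM with TRi-1 and rose 1.83-fold (0.87, adjusted p = 0.00803). The metallothionein rises numbered 1 to 3 over the processing alternatives.

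Lysosomal genes changed both ways, with 10 of 32 tested higher and 5 lower (median 0.17, or 0.035 after the GC correction). NEU1, a sialidase, stood at 77.3, 81.9 and 78.4 CPM in the DMSO libraries and 110.3, 113 and 118 CPM in the TRi-1 libraries and rose 1.44-fold (0.52, adjusted p = 0.000508). NPC2 (1.29-fold) and NPC1 (1.19-fold), which export cholesterol from lysosomes, rose. The cathepsins CTSK, CTSS (1.72-fold), CTSH (1.6-fold) and CTSF (1.32-fold) fell. GLB1, the enzyme behind the senescence-associated beta-galactosidase stain, missed the threshold (-0.06, adjusted p = 0.422). Called rises came to 5 without DMSO replicate 1 or TRi-1 replicates 1 or 3, 6 without DMSO replicates 2 or 3 and 6 to 15 over the processing alternatives, and falls to 4 to 5 with single libraries left out and 5 to 8 over the alternatives.

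Of 31 tested genes of cholesterol and fatty acid synthesis, 6 rose and 0 fell (median 0.19). NSDHL, an enzyme of the late steps of cholesterol synthesis, stood at 32, 30.5 and 30.3 CPM in the DMSO libraries and 41.3, 41.6 and 42.5 CPM in the TRi-1 libraries and rose 1.35-fold (0.43, adjusted p = 4.7e-05). ACLY (1.34-fold) and FDPS (1.31-fold) rose, while SQLE (0.02, adjusted p = 0.899), a rate-limiting enzyme, missed the threshold. With the GC correction SQLE was called higher (0.14, adjusted p = 0.00207). Rises came to 4 without DMSO replicate 1, and 4 to 5 with single libraries left out and 5 to 14 over the processing alternatives. The count of 0 lower held with each library left out, but 2 fell with the 6 libraries fitted alone, 3 after the GC correction, 4 with the replicate block and the GC correction together, and 1 with upper-quartile scaling or a mean of at least 5 CPM. At an unadjusted p under 0.05, 9 were higher and 2 lower.

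In glycolysis and hypoxia, 8 of 32 tested genes rose and 4 fell (median 0.16, or 0.04 after the GC correction). PKM, pyruvate kinase, stood at 2057, 2272 and 2263 CPM in the DMSO libraries and 2890.0, 2963 and 2942 CPM in the TRi-1 libraries and rose 1.33-fold (0.42, adjusted p = 0.00692). ENO1 (1.25-fold) and HK1 (1.19-fold) rose and ALDOC fell (1.31-fold). Rises numbered 5 without DMSO replicate 1 or TRi-1 replicate 3 and 6 to 14 over the processing alternatives, and the number lower 2 without DMSO replicate 2 or TRi-1 replicate 3 and 2 to 6 over the processing alternatives.

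Of 33 tested proteasome genes, 5 rose and 1 fell (median 0.11). PSMD2 rose 1.24-fold (0.31, adjusted p = 0.000348), while PSMB9, an interferon-induced subunit, fell 1.69-fold, a call lost without DMSO replicate 3 (highest adjusted p = 0.0621). The count of rises was 2 without DMSO replicate 1 or TRi-1 replicates 1 or 2, 3 without DMSO replicates 2 or 3 and 3 to 15 over the processing alternatives. The number lower was 0 without DMSO replicate 3, 2 without TRi-1 replicate 3 and 1 to 3 over the processing alternatives. Respiratory chain genes were 2 higher and 0 lower of 38 (median 0.11, 6 and 2 at an unadjusted p under 0.05), with the number higher 0 without DMSO replicate 1, 1 without DMSO replicate 3 or TRi-1 replicates 1, 2 or 3 and 1 to 13 over the processing alternatives, where 0 to 4 were lower. Of 42 tested ribosomal protein genes, 0 were called in either direction by edgeR (median 0.10). At an unadjusted p under 0.05, 5 were higher and 0 lower, against 2159 and 3000 of all 15994 genes tested. With the 6 libraries fitted alone 11 ribosomal genes were higher and 1 lower, and after the GC correction 8 and 0.

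For each list in which edgeR called 0 genes in a direction, DESeq2 and limma-voom also called 0, with the exception of the nucleic acid sensors, where each called 1 higher. 

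**Figure D4:**
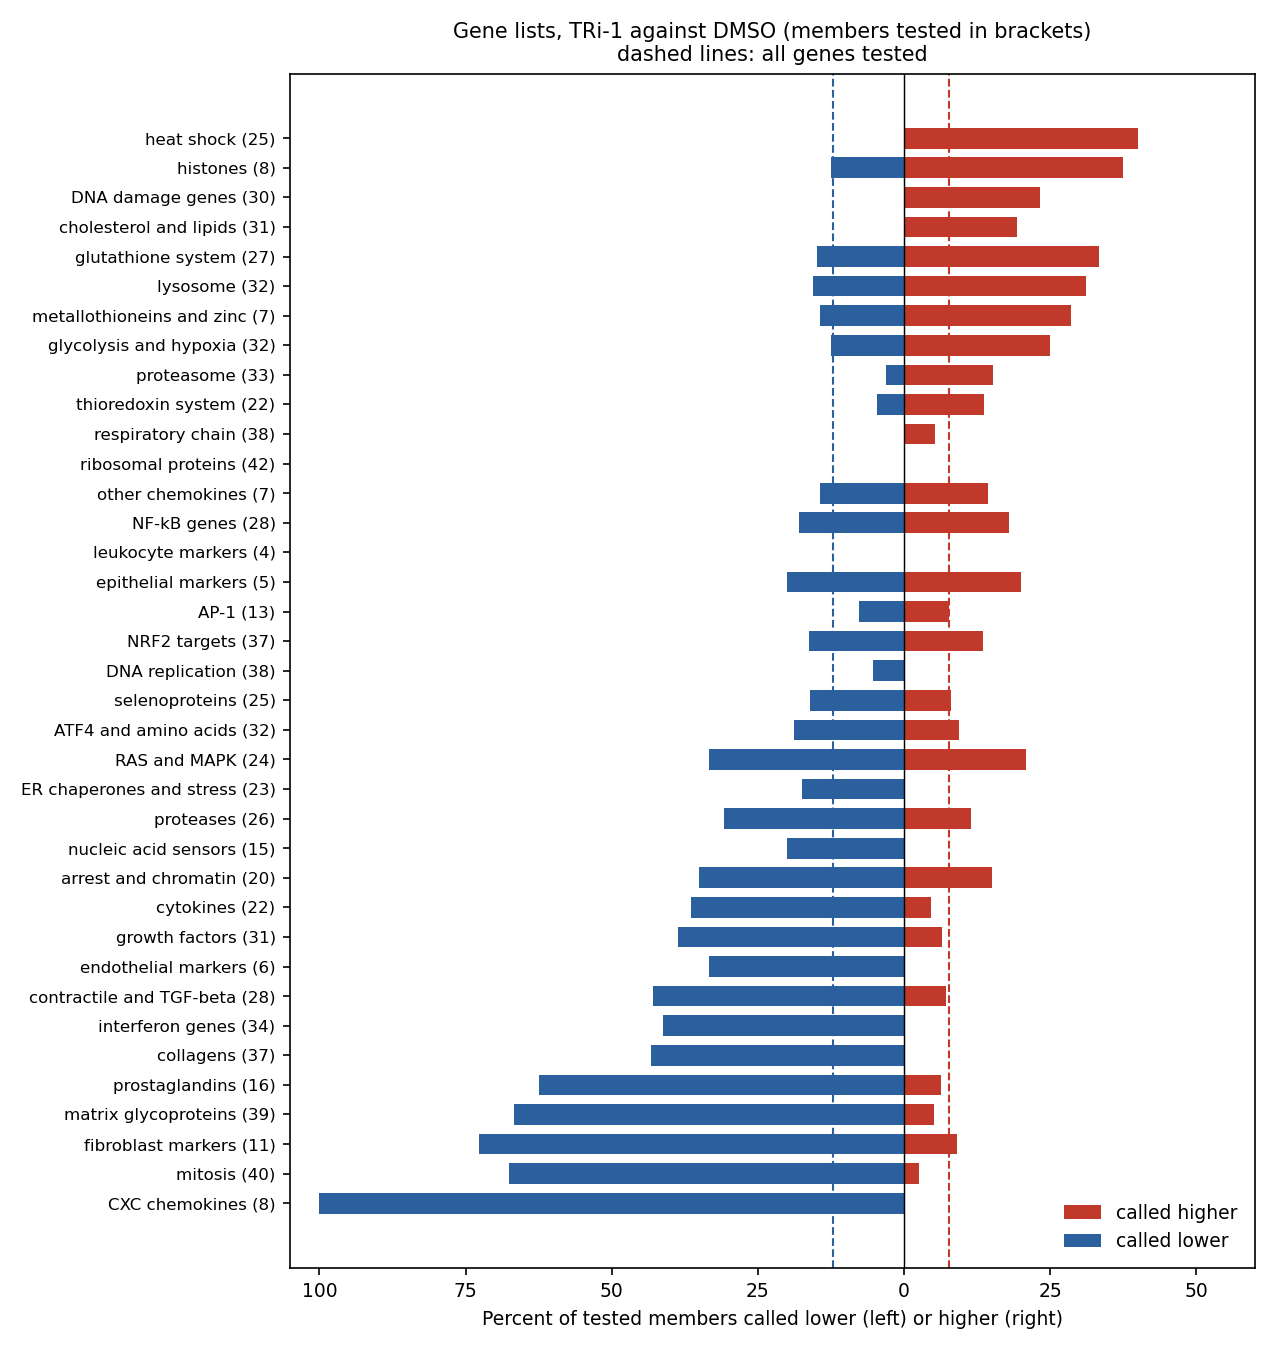
Share of the tested members of each gene list called higher (red, right) or lower (blue, left) with TRi-1, in percent, with the number tested in brackets. Dashed lines are the shares over all genes tested, 7.64% higher and 12.2% lower. Lists at the bottom (CXC chemokines, mitosis, fibroblast markers, matrix glycoproteins, prostaglandins) lie well past the blue line, and heat shock genes reach 40% higher and 0% lower.

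RAS signalling to ERK is a growth pathway whose strong activation can make fibroblasts senescent. Of 24 tested genes, 5 rose and 8 fell (median -0.09), with HRAS at 73.4, 94 and 101 CPM with DMSO and 123, 132 and 116 CPM with TRi-1 (0.47, adjusted p = 0.388). EGR1, an immediate early gene, stood at 106, 117 and 115 CPM with DMSO and 77.5, 77.3 and 76.1 CPM with TRi-1 and fell 1.46-fold (-0.55, adjusted p = 8.59e-06). SPRY1, a feedback inhibitor, fell 1.98-fold (-0.99, adjusted p = 1.96e-05), and MYC rose 1.68-fold (0.75, adjusted p = 3e-04). DUSP6 (-0.07, adjusted p = 0.477) and SPRY4 (-0.10, adjusted p = 0.167) missed the threshold. Falls numbered 5 without DMSO replicate 1 and 7 to 11 over the processing alternatives. Of 13 tested AP-1 genes, 1 rose and 1 fell, 7.69% each, against 7.64% and 12.2% of all genes tested. Their median was 0.07, or -0.13 after the GC correction. FOS fell 2.36-fold (6.89, 8.33 and 8.44 CPM with DMSO and 3.77, 3.33 and 2.96 CPM with TRi-1) and FOSL1 rose 1.82-fold (45, 52.8 and 56.5 CPM with DMSO and 93.9, 95.2 and 91.6 CPM with TRi-1), with adjusted p of 2.87e-05 and 0.000311. FOS and FOSL1 moved in opposite directions, and over the processing alternatives 1 to 2 AP-1 genes rose and 1 to 3 fell.

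The strongest falls over all genes, by the rule that took the 10 largest with a mean of at least 1 log2 CPM and no overlap, were led by HBG2, a fetal globin. HBG2 stood at 18.7, 15.8 and 18 CPM with DMSO and 1.02, 1.06 and 1.35 CPM with TRi-1 and fell 15.1-fold (-3.92 ± 0.21, adjusted p = 2.52e-08), and reads may be shared with its near-copy HBG1. CFB, complement factor B, stood at 32.3, 26.2 and 29.9 CPM with DMSO and 3.21, 3.0 and 3.68 CPM with TRi-1 and fell 8.92-fold (-3.16 ± 0.17, adjusted p = 2.82e-08). EDNRB, an endothelin receptor, stood at 93.1, 83.1 and 85.6 CPM with DMSO and 13, 13.7 and 13.9 CPM with TRi-1 and fell 6.44-fold (-2.69 ± 0.09, adjusted p = 1.75e-10). In all 3 the TRi-1 libraries were several times lower than any DMSO library.

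RGS5, a regulator of G protein signalling known from pericytes, stood at 91.3, 88.3 and 87.5 CPM with DMSO and 15.7, 15 and 16.4 CPM with TRi-1 and fell 5.68-fold (adjusted p = 5.48e-10, for the gene ENSG00000143248). BMP5, a bone morphogenetic protein, fell 6.46-fold, PLPPR4 7.74-fold, the smooth muscle myosin MYH11 5.46-fold and the cell adhesion molecule LSAMP 5.23-fold. With CXCL6 and COL14A1 these make the 10.

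The strongest rises were smaller. GPRC5A, an orphan receptor, stood at 7.0, 7.8 and 8.58 CPM in the DMSO libraries and 27.1, 23.7 and 26.7 CPM in the TRi-1 libraries and rose 3.3-fold (1.72 ± 0.08, adjusted p = 5.26e-09). MZF1, a zinc finger factor, stood at 7.31, 8.06 and 8.55 CPM with DMSO and 18, 17.8 and 17.8 CPM with TRi-1 and rose 2.24-fold (1.16, adjusted p = 2.84e-07). NR3C2, the mineralocorticoid receptor, stood at 1.3, 1.53 and 1.48 CPM with DMSO and 3.61, 3.84 and 3.63 CPM with TRi-1 and rose 2.56-fold (1.36, adjusted p = 8.07e-06). The other 7 were GATD1 (2.6-fold), EGF (2.32-fold), ATP6V0D2 (3.06-fold), PDCD6IP-DT (2.49-fold), LINC02392 (3.63-fold), LINC01705 (2.61-fold) and ZNG1C, whose call (1.27, adjusted p = 0.0475) was lost without any 1 of the libraries other than DMSO replicate 3 (highest adjusted p = 0.194). ZNG1C and PDCD6IP-DT have near-copies or neighbours that could share reads.

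The cells carried fibroblast markers throughout, but at lower levels with TRi-1. The summed level of the 11 fibroblast markers was 15547 to 18068 CPM with DMSO and 11682 to 12431 CPM with TRi-1, and 8 of the 11 fell while 1 rose (median -0.72). PDGFRA, a growth factor receptor of fibroblasts, stood at 787, 719 and 737 CPM with DMSO and 402, 399 and 406 CPM with TRi-1 and fell 1.86-fold (-0.89, adjusted p = 2.86e-06). THY1 (0.09, adjusted p = 0.735) missed the threshold, and VIM, vimentin, was called higher (0.15, adjusted p = 0.03), a call lost without any 1 of the 6 libraries (highest adjusted p = 0.103), which took the list to 0 higher. Summed levels of markers of other cells were far lower. The 10 epithelial markers summed to 46.5 to 49.4 CPM with DMSO and 56.7 to 57.4 CPM with TRi-1, with 4 of 10 at 0. Of the 5 tested, 1 rose and 1 fell, and the rise, of KRT18, was lost without any 1 of the 6 libraries (highest adjusted p = 0.0898). The endothelial markers summed to 90.0 to 95.5 and 55.6 to 59.3 CPM, with 2 of 6 tested lower, and leukocyte markers to 57.4 to 75.0 and 92.4 to 93.9 CPM, with 0 of 4 called (1 higher at an unadjusted p under 0.05) and 3 of 10 at 0. Only 1 endothelial marker (-0.78) and 1 leukocyte marker (0.44) remained in the fit of genes with a mean of at least 5 CPM. The medians of the tested markers were -0.38 and -0.05, so these sums do not describe the lists as a whole. The endothelial count lower was 1 without any 1 of the libraries other than DMSO replicate 1 and 1 to 3 over the processing alternatives, which called 0 to 1 leukocyte and 0 to 1 fibroblast markers higher and 0 to 1 epithelial markers lower.

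The vehicle group was not the same as the senescent control: 2595 genes (16.2% of those tested) differed between DMSO and senescent control. The labels name the latter only as the control condition, so the part of DMSO itself in these differences was not tested. The comparison of DMSO with senescent control shares the DMSO libraries with the inhibitor comparison, so levels are given side by side only. GPRC5A was at 19.6 CPM in the senescent control, 7.79 with DMSO and 25.8 with TRi-1. MZF1 was at 19.9, 7.97 and 17.9 CPM, and NR3C2 at 4.55, 1.44 and 3.69 CPM, so for these rises the DMSO level lay below that of the senescent control. MIAT, a long noncoding RNA, was at 3.22, 12.1 and 3.74 CPM, the reverse order. For CXCL6 the means were 340.0 CPM in the senescent control, 444 with DMSO and 34.6 with TRi-1, and for CXCL8 9949, 7603 and 3963 CPM, so both of these lay lowest with TRi-1. CCL2 was at 369, 155 and 181 CPM, between the other groups with TRi-1, and CX3CL1 at 0.272, 0.826 and 0.273 CPM, about level with the senescent control.

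The hairpin comparison (shTXNRD1 against senescent control) lowers the TXNRD1 transcript itself and shares no library with the inhibitor comparison. The log2 fold change of TXNRD1 mRNA was -4.51 ± 0.08 (SE) there. In the hairpin comparison 50.7% of genes were called, 24.8% of all tested genes lower and 25.8% higher. Of the 1954 genes lower with TRi-1, 868 were lower with the hairpin (44.4% of the first list, 21.9% of the second), and of the 1222 higher, 435 were higher (35.6% and 10.5%). Another 528 of the 1954 were higher with the hairpin, against 25.8% of all genes tested. Of the 1222, 323 were lower with the hairpin, against 24.8% of all genes tested. Both of these opposite counts are close to the shares over all genes. The difference between the effects was called for 41.7% of all genes tested.

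CXCL6, CXCL5 and CXCL8 fell in both. The log2 fold changes with the hairpin were -2.12 ± 0.09 for CXCL6, -0.74 ± 0.07 for CXCL5 and -1.64 ± 0.11 for CXCL8. CXCL6 fell more with TRi-1 (difference -1.57 ± 0.13, adjusted p = 5.25e-07) and CXCL8 more with the hairpin (difference 0.70 ± 0.15, adjusted p = 0.00173). STING1 changed by -2.23 ± 0.11 on the log2 scale with the hairpin, further than with TRi-1 (difference 1.90 ± 0.15, adjusted p = 3.49e-07).

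Some of the other named TRi-1 falls went the other way with the hairpin. POSTN (0.99 ± 0.08 with the hairpin, difference -2.85 ± 0.11, adjusted p = 5.93e-10), LUM (0.39 ± 0.09, difference -1.67 ± 0.13, adjusted p = 3.88e-07) and BMP5 (1.41 ± 0.10, difference -4.10 ± 0.16, adjusted p = 5.67e-10) were lower with TRi-1 and higher with the hairpin. RGS5 fell with TRi-1 and stood at 0.26 ± 0.08 with the hairpin (difference -2.77 ± 0.12, adjusted p = 1.5e-09). LSAMP fell with both, with log2 fold changes of -2.39 and -2.60 ± 0.09, and the difference missed the threshold (0.21 ± 0.12, adjusted p = 0.181), which does not show that the effects are equal. For SCG2, a secreted granin, the hairpin gave 3.98 ± 0.16 against 0.08 with TRi-1 (difference -3.90 ± 0.23, adjusted p = 3.03e-08).

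**Figure D5:**
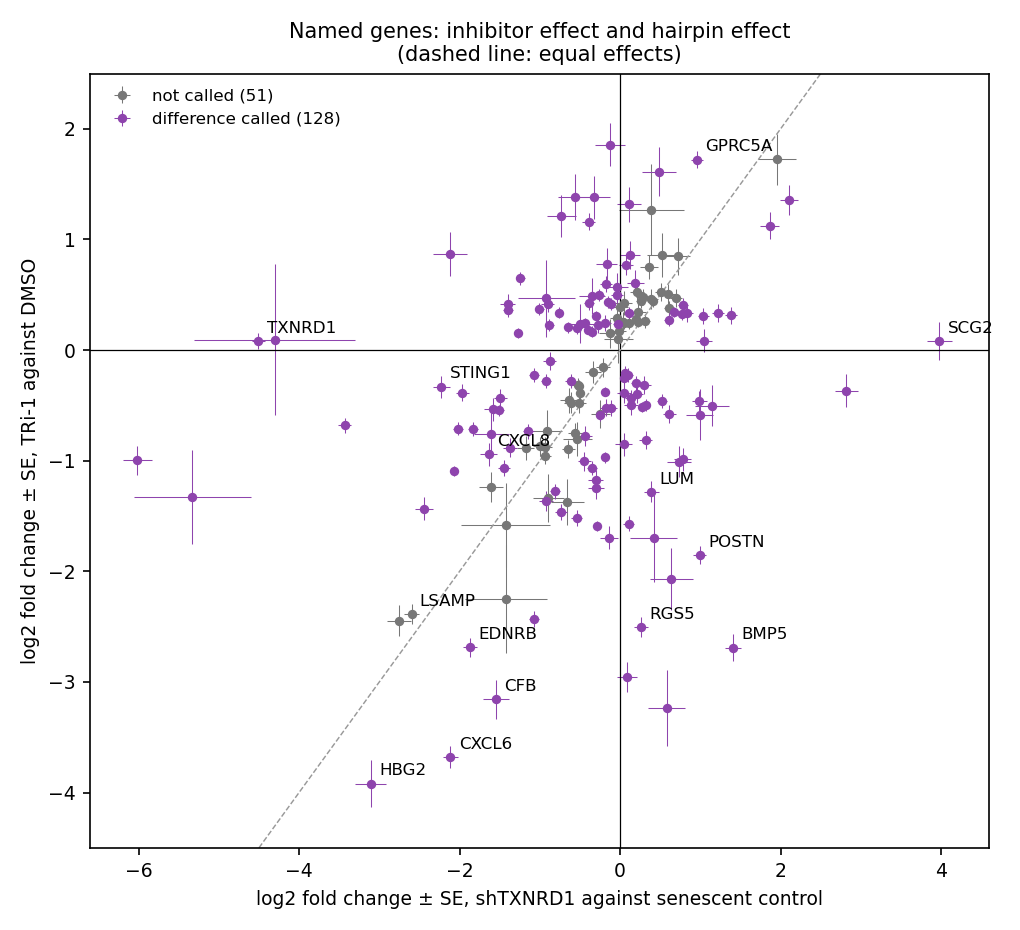
Named genes with their log2 fold change ± SE for shTXNRD1 against senescent control (x axis) and for TRi-1 against DMSO (y axis). Purple points are genes whose effects differ at an adjusted p under 0.05, grey points those that missed it, and the dashed line marks equal effects. TXNRD1 lies far to the left near 0 on the y axis, CXCL6, CFB and HBG2 fall in both, and POSTN, LUM, RGS5 and BMP5 lie low on the right. FRG2FP, at 0 counts in the hairpin libraries, lies beyond the left edge.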

How the data were processed

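RNA-seq libraries of IMR90 cells were deposited as 1 table of whole-number counts per gene, made by the authors with tools that the submitters' processing notes name as RSEM 1.2.3 and DESeq2, with the builds hg19 and mm10. The notes do not say which step each served, and the human build is taken here to be the one of these libraries. The deposited counts are not normalized. How shared reads and strand were treated is not given in the sources used here.

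Counts were analysed with edgeR 4.0.16 (R 4.3.3) on all 15 libraries, 3 in each of 5 groups: TMM scaling, edgeR's filter on low counts by group, and a robust quasi-likelihood fit with 1 coefficient per group, whose spread all groups share (10 residual degrees of freedom). P-values were adjusted by Benjamini-Hochberg over 15994 genes, with calls made under 0.05. The standard error is the log2 fold change divided by the square root of F. CPM values use the TMM-scaled library sizes. Symbols matched 39991 of 57736 gene IDs (39501 in a gene name table, 490 in a GENCODE annotation), and rows without a symbol held 0.895% of counts.

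The comparison, the 37 gene lists (930 genes) and the tests were chosen with earlier results of these data known. Named genes were a fixed panel and the 10 largest called changes each way (mean log2 CPM of at least 1, groups not overlapping). Up to 3 called members each way per list by p were added. So were the 4 largest each way for the difference between the TRi-1 and hairpin effects and for DMSO against senescent control. Other list members are named beside their list. With 3 against 3 libraries an exact permutation test cannot go below 0.1, so none was used. Alternatives were limma-voom (limma 3.58.1), DESeq2 1.42.0, other scalings and filters, a replicate block, a GC correction, a 2-fold minimum, the 6 libraries alone and each library left out. The test was run on simulated counts without a library that stands apart and without a GC trend, so that check does not cover these features. Listed genes without a matching row, such as CCL5, TXNIP and PECAM1, were not analysed here. Some genes counted in the lists are not reported here by name. Promoters come from RefSeq on GRCh38.p14.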

Additional observations from a re-analysis of the deposited data

How the results depend on the processing

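Counts of genes moved with the model and the filter, and no gene called in both the reported fit and an alternative changed direction. Against 1222 higher and 1954 lower, the 6 libraries fitted alone gave 2344 and 3037, a correction for GC content 2526 and 2982, and the replicate block with the GC correction 2389 and 2838. Without a filter on low counts 812 were higher and 1672 lower, and a test against a minimum of 2-fold called 3 and 68. DESeq2 called 1112 and 1761, limma-voom 1260 and 1953. Leaving out 1 library gave 772 to 845 higher and 1372 to 1550 lower. The cause of these moves was not tested.

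The replicate numbers did not pair the samples: the correlations of same-numbered DMSO and TRi-1 libraries, as deviations from their group means, were -0.00193, 0.129 and -0.26. The replicate block gave 1018 genes higher and 1725 lower, and not every library correlated best with its own number.

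Named genes whose fold change changed sign had all missed the threshold in the reported fit. After the GC correction the log2 fold change was -0.041 for FOXM1, -0.014 for GPX4, 0.043 for HSPA5, -0.055 for LIF, 0.0080 for LOX, -0.021 for PRDX5, -0.041 for TGFB1, -0.066 for THY1 and -0.11 for VEGFA. With the replicate block and the GC correction together it was -0.042 for FOXM1, -0.014 for GPX4, 0.043 for HSPA5, -0.055 for LIF, 0.0079 for LOX, -0.020 for PRDX5, -0.040 for TGFB1, -0.066 for THY1 and -0.11 for VEGFA. With upper-quartile scaling it was -0.010 for SOD2 and -0.0066 for SQLE, and with a mean of at least 5 CPM -0.012 for SOD2 and -0.0085 for SQLE. Over the fits without 1 library it ran from -0.19 to 0.11 for COL18A1, -0.19 to 0.082 for COL6A1, -0.029 to 0.094 for FOXM1, -0.26 to 0.0044 for HSPA1A, -0.026 to 0.026 for HSPA5, -0.32 to 0.22 for ISG15, -0.23 to 0.034 for PLK1, -0.012 to 0.070 for SOD2, -0.018 to 0.076 for SQLE and -0.0055 to 0.21 for TGFB1. At about 1 CPM, as for TLR2, CX3CL1 and SELENOP, each library holds few counts, so the size of a fold is imprecise.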
